A study of Sorghum bicolor with 12 samples.

Results

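The sucrose transporter (SUT) family of sorghum (Sorghum bicolor) was followed in whole shoots of the inbred line BTx623 as mRNA (RNA-seq) and as ribosome footprints (Ribo-seq), the stretches of mRNA that a ribosome shields from nuclease. Its members were the 6 genes SbSUT1 to SbSUT6, taken by gene ID, each with 1 transcript among the 34210 transcripts listed. Sulfur-deficient seedlings received 10 µM sulfate per the sample titles (0 µM per the series' design text) and control seedlings received 500 µM sulfate, in both cases for 8 days after 5 days of germination, and shoots were taken 13 days after sowing. There were 3 shoots in each group, called biological replicates by the submitters, and the powder of 1 shoot supplied both its RNA and its footprint library, so that 12 libraries came from 6 shoots. Each RNA library summed to between 13995665 and 18475153 counts, and each footprint library to between 6328659 and 11066815. The tissue label was not checked against marker genes, because the deposited transcripts carry no gene names. In whole shoots, fewer cells that express a gene and less RNA per cell cannot be told apart.

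SUT proteins are proton-coupled symporters that move sucrose across membranes. Leaves export fixed carbon mainly as sucrose, and in grasses such as maize the SUT1 protein loads it into the phloem, the tissue that carries sugar to roots, stems and young leaves. Other grass SUT proteins lie in the membrane of the vacuole or act in sink tissues. The numbering of SUT2 to SUT6 is not the same in all grasses, so roles known from rice or maize are not carried over to these sorghum members by number.

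By their IDs, SbSUT1 (Sobic.001G488700.1) and SbSUT3 (Sobic.001G254000.1) lie on chromosome 1, SbSUT2 (Sobic.004G353600.1) and SbSUT5 (Sobic.004G190500.1) on chromosome 4, SbSUT6 (Sobic.007G214500.1) on chromosome 7 and SbSUT4 (Sobic.008G193300.1) on chromosome 8. The deposited coding lengths are close to each other. They are 1506 bases for SbSUT4, 1524 for SbSUT3, 1560 for SbSUT1, 1605 for SbSUT5, 1785 for SbSUT2 and 1791 for SbSUT6. How reads that match several transcripts were counted is not given in the sources used here, so any exchange of reads between members is not known.

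The first question was which SUT genes the shoot expresses. SbSUT1, SbSUT4 and SbSUT2 were detected in all 12 libraries with at least 31 counts, whereas SbSUT5, SbSUT6 and SbSUT3 together made up 0.0561% to 0.115% of the family's RNA and 0.0471% to 0.0918% of its footprints. Levels are given as CPM, the count scaled by the TMM-adjusted library size, and per kb of coding length where members are compared. SbSUT1 had the highest mean level in both assays. Its RNA averaged 198 ± 8.70 CPM per kb in sulfur-deficient shoots and 180.5 ± 27.5 CPM per kb in control shoots (SD, n = 3 each), and its footprints averaged 550.3 ± 140.4 and 379.8 ± 58.9 CPM per kb in sulfur-deficient and control shoots. SbSUT4 followed with RNA of 117 ± 2.41 CPM per kb in deficient and 107 ± 9.40 in control shoots, and footprints of 87.4 ± 4.81 in deficient and 86.7 ± 19.9 in control shoots. SbSUT2 stood far lower, with RNA of 8.22 ± 0.959 CPM per kb in deficient and 8.42 ± 1.35 in control shoots, and footprints of 2.74 ± 0.410 in deficient and 3.55 ± 0.318 in control shoots.

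**Figure D1:**
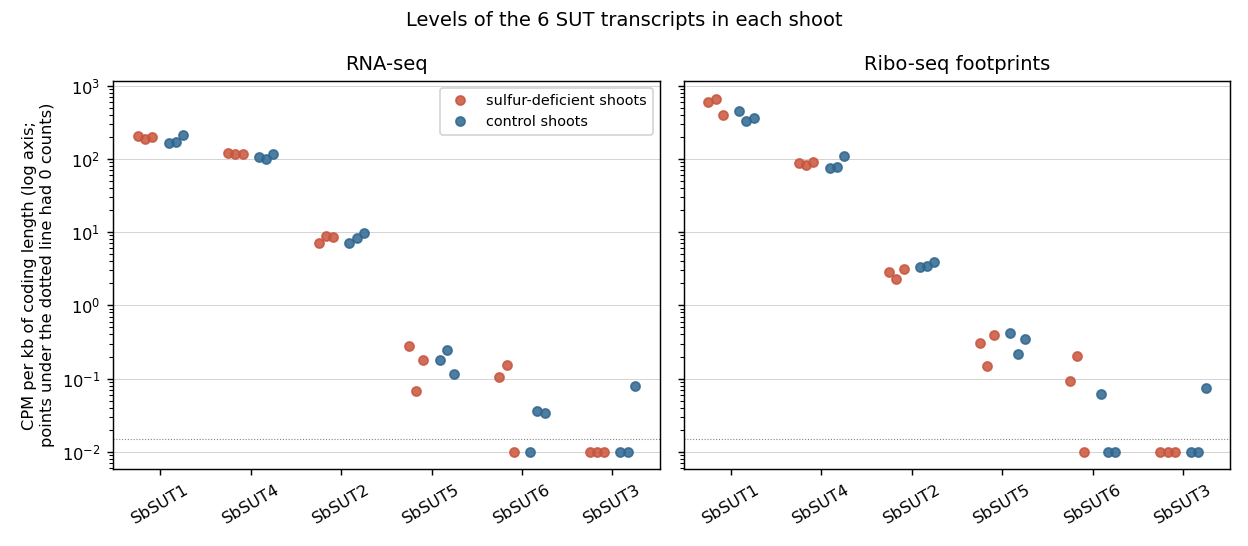
Level of each SUT transcript in CPM per kb of coding length (log axis) in RNA-seq (left) and Ribo-seq (right), 1 point per shoot, with sulfur-deficient shoots left of control shoots for each gene; points under the dotted line had 0 counts. SbSUT1, SbSUT4 and SbSUT2 form separate levels in every shoot, and SbSUT5, SbSUT6 and SbSUT3 lie near 0.

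Set against all 34026 transcripts with a coding length, SbSUT1 ranked 801st by RNA level per kb in sulfur-deficient and 866th in control shoots. By footprint level per kb it ranked 270th in deficient and 396th in control shoots. SbSUT4 moved the other way between assays, at 1436th in RNA and 1911th in footprints of deficient shoots, and at 1552nd in RNA and 1893rd in footprints of control shoots. SbSUT2 stood at 11932nd in RNA and 13706th in footprints of deficient shoots, and at 11912th in RNA and 12831st in footprints of control shoots.

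The order SbSUT1, SbSUT4, SbSUT2 and SbSUT5 held in all 6 shoots and in both assays. In RNA, the level per kb of SbSUT1 was 1.69 times that of SbSUT4 (1.55 to 1.82 over the 6 shoots), SbSUT4 was 13.5 times SbSUT2 (11.8 to 16.8), and SbSUT2 was 45.4 times SbSUT5 (24.1 to 102). In footprints the corresponding ratios were 5.21 (3.33 to 8.04), 27.5 (22.1 to 35.4) and 9.63 (7.32 to 13.8). Each of these differences had p = 0.03125 in an exact paired sign-flip permutation test (two-sided), the smallest p that 6 shoots allow, and 0.0521 after Benjamini-Hochberg adjustment over the 5 neighbouring pairs of an assay. The pairs were neighbours in the order seen in these same shoots, so the p-values do not test an order set beforehand. Neighbours among the 3 lowest members did not keep their order in all 6 shoots. SbSUT5 exceeded SbSUT6 in 5 of 6 shoots in each assay (exact adjusted p = 0.0781), and SbSUT6 exceeded SbSUT3 in 3 of 6 shoots in each (exact adjusted p = 0.281 in RNA and 0.5 in footprints). SbSUT6 and SbSUT3 both had 0 RNA counts in control shoot 1 and deficient shoot 3. Both had 0 footprints in control shoot 2 and deficient shoot 3. There the log2 difference, taken after adding a prior count of 0.5, comes from the coding lengths alone. The p-values of this pair thus rest partly on shoots without counts and do not decide its order. SbSUT5 and SbSUT3, which are not neighbours in the order and were not tested against each other, differed in the same direction in 6 of 6 shoots in each assay, with SbSUT5 higher. RNA reads may also come from untranslated regions, whose lengths were not used here, so the RNA ratios between genes carry that uncertainty.

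Among the family's counts per kb, SbSUT1 took 61.7%, 60.2% and 61.5% of the RNA in sulfur-deficient shoots 1, 2 and 3, against 59.1%, 61.1% and 62.6% in control shoots 1, 2 and 3. Of the footprints it took 86.7%, 88.6% and 80.5% in deficient shoots, against 85.1%, 80.5% and 76.2% in control shoots. Its share was thus larger in footprints than in RNA in each of the 6 shoots. SbSUT4 held 35.8% to 36.9% of the RNA in deficient and 34.4% to 38.2% in control shoots, and 11.0% to 18.8% of the footprints in deficient and 14.2% to 22.9% in control shoots.

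The low members rested on a handful of counts. SbSUT5 had 7, 2 and 4 RNA counts in deficient shoots and 4, 6 and 3 in control shoots, with 3, 2 and 5 footprints in deficient and 6, 4 and 5 in control shoots. SbSUT6 had 3, 5 and 0 RNA counts in deficient and 0, 1 and 1 in control shoots, with 1, 3 and 0 footprints in deficient and 1, 0 and 0 in control shoots. The groups overlap for both genes in both assays. For counts summed over 3 libraries, here and for SbSUT3 below, CPM uses the total counts without the TMM adjustment. The 8 summed RNA counts of SbSUT6 in deficient shoots correspond to 0.166 CPM (exact Poisson 95% interval 0.0715 to 0.326). Its 2 counts in control shoots correspond to 0.0441 CPM (0.00534 to 0.159). These intervals overlap and cover counting error only. SbSUT3 had 0 counts in every deficient library and in control shoots 1 and 2, with 2 RNA counts and 1 footprint in control shoot 3. The 0 RNA counts over the deficient libraries allow up to 0.0621 CPM when 3 counts of the total are taken as the limit, and the exact Poisson 95% interval reaches 0.0764 CPM. These 3 genes failed the filter on low counts. In the edgeR fit with no filter, which tested them, 0 of the 3 were called in RNA or in footprints (adjusted p = 0.652 to 0.993), 0 had an unadjusted p under 0.05, and 0.734% of all transcripts were called in RNA and 0.214% in footprints. For SbSUT5 that fit gave a log2 fold change of -0.05 (SE 0.627) in RNA and -0.19 (SE 0.665) in footprints, so changes of the size seen in the other members were not detectable at this depth.

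The second question was whether sulfur supply changed the SUT mRNAs. Of the 6 members, 3 passed the filter in RNA and 0 of these were called by edgeR's quasi-likelihood test at an adjusted p under 0.05, where 0.634% of the 20045 transcripts tested were called. By DESeq2 0 were called as well (1.29% of transcripts), and 0 had an unadjusted p under 0.05 in edgeR, where 12.2% of all transcripts did. SbSUT1 RNA stood at 320.5, 294 and 312 CPM in sulfur-deficient shoots 1, 2 and 3, against 253, 261 and 331 CPM in control shoots 1, 2 and 3. Control shoots 1 and 2 were below every deficient shoot and control shoot 3 was above all of them, so the groups overlap. They did so for each of the 3 members, and did not for 17.6% of all transcripts tested. The log2 fold change of SbSUT1 was 0.13 (SE 0.101, 95% interval -0.09 to 0.36, edgeR adjusted p = 0.636).

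SbSUT4 RNA stood at 180.4, 174 and 175 CPM in deficient shoots, against 158, 148 and 176 CPM in control shoots. Control shoot 3 again lay among the deficient shoots, and the log2 fold change was 0.14 (SE 0.0755, 95% interval -0.03 to 0.30, edgeR adjusted p = 0.501). SbSUT2 RNA stood at 12.7, 16.0 and 15.3 CPM in deficient shoots, against 12.8, 14.8 and 17.6 CPM in control shoots. The groups overlap (log2 fold change -0.04, SE 0.132, 95% interval -0.33 to 0.26, edgeR adjusted p = 0.931). The median log2 fold change of these 3 members was 0.13, which is the value of SbSUT1, and that of all transcripts tested was -0.01. Of all transcripts tested, 54.2% had a smaller absolute change than SbSUT1, 55.2% than SbSUT4 and 17.3% than SbSUT2. Without control shoot 3 the log2 fold changes of SbSUT1 and SbSUT4 were 0.27 and 0.21, and both still missed the threshold (edgeR adjusted p = 0.0805 and 0.138). That run called 460 of 20219 transcripts. Both changes were largest in that run. With any other shoot left out instead, they were 0.061 to 0.165 for SbSUT1 and 0.086 to 0.145 for SbSUT4.

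Footprints were compared next. Again 3 members passed the filter and edgeR called 0 of them, where 0.224% of 16514 transcripts were called. DESeq2 called 0 as well (0.575% of transcripts), and 1 member, SbSUT1, had an unadjusted p under 0.05 in either tool, as did 6.90% of all transcripts tested in edgeR. SbSUT1 footprints stood at 931, 1032 and 612 CPM in sulfur-deficient shoots, against 694, 514 and 569.9 CPM in control shoots. Deficient shoots 1 and 2 were above every control shoot, while deficient shoot 3 fell between control shoots 3 and 1. The fitted ratio was 1.45 (log2 fold change 0.53, SE 0.199, 95% interval 0.09 to 0.98, edgeR unadjusted p = 0.0221, adjusted p = 0.659), so the difference failed the correction over all transcripts.

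SbSUT2 footprints stood at 5.08, 4.09 and 5.52 CPM in deficient shoots, against 5.92, 6.09 and 6.98 CPM in control shoots. All deficient shoots were below all control shoots, which was the case for 4.97% of the transcripts tested. The log2 fold change of SbSUT2 was -0.37 (SE 0.215, 95% interval -0.85 to 0.11, edgeR adjusted p = 0.748), and its libraries held only 31 to 71 footprints. SbSUT4 footprints stood at 133, 124 and 138 CPM in deficient shoots, against 112, 115 and 165 CPM in control shoots. All deficient shoots lay within the control range, and the log2 fold change was 0.01 (SE 0.161, 95% interval -0.35 to 0.37, edgeR adjusted p = 0.993).

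**Figure D2:**
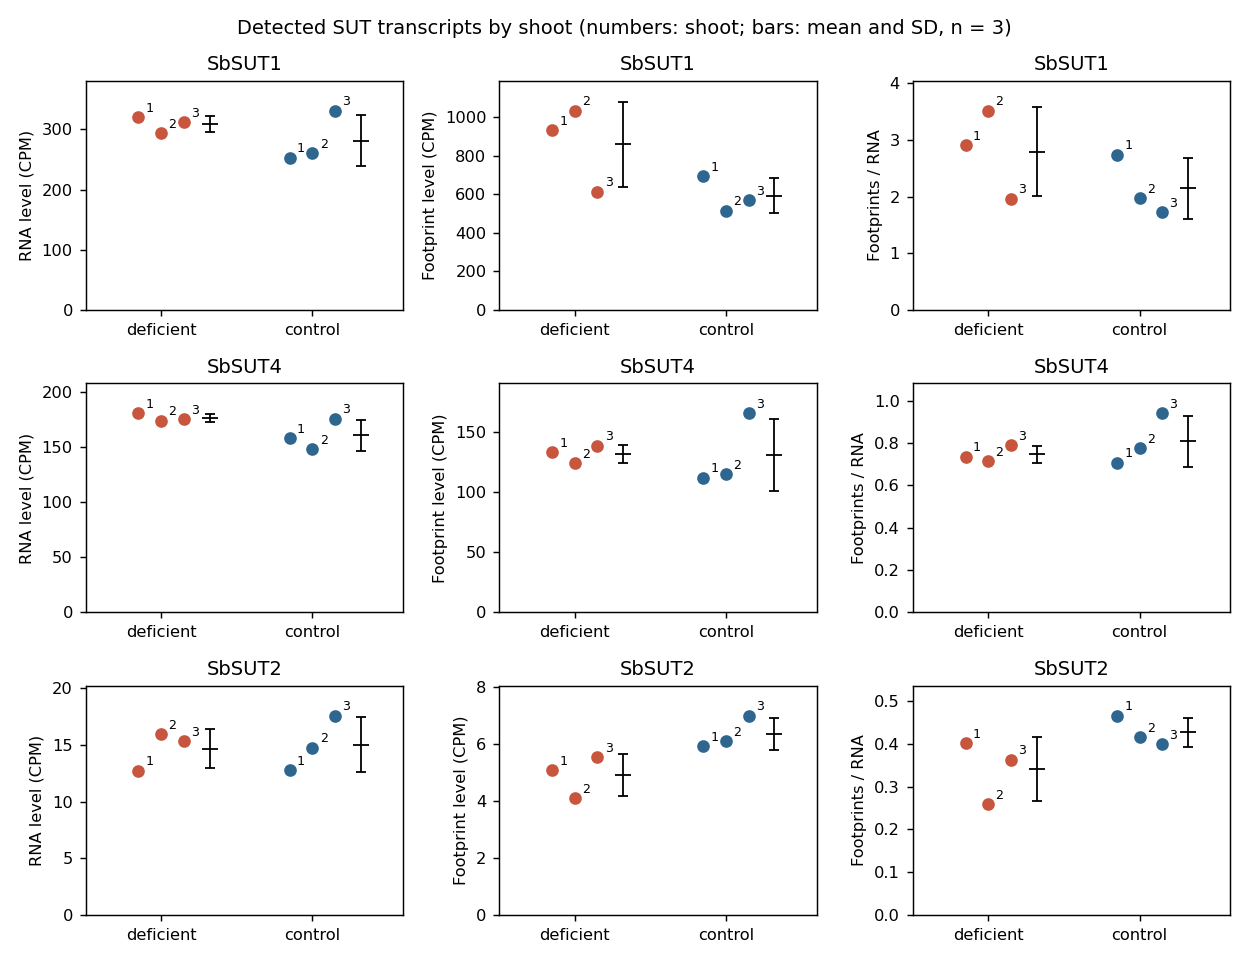
RNA level in CPM, footprint level in CPM and ratio of footprints to RNA for SbSUT1, SbSUT4 and SbSUT2 in each shoot, with sulfur-deficient shoots left of control shoots; numbers are shoots and bars are mean and SD (n = 3). SbSUT1 footprints reach 1032 CPM in deficient shoot 2, while deficient shoot 3 at 612 CPM lies within the control range.

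The median log2 fold change of the 3 members in footprints was 0.01, which is the value of SbSUT4, against 0.000818 over all transcripts tested. Of all transcripts tested, 91.7% had a smaller absolute change than SbSUT1, 4.38% than SbSUT4 and 82.1% than SbSUT2. The ratio of SbSUT1 to SbSUT2 footprints per kb was 207, 285 and 126 in deficient shoots, against 133, 95.6 and 92.7 in control shoots. Deficient shoot 3 lay below control shoot 1, so the groups overlap. For SbSUT4 over SbSUT2 the footprint ratios were 30.6, 35.4 and 29.4 in deficient shoots, against 22.2, 22.1 and 27.8 in control shoots, which do not overlap. The SbSUT2 footprints in this ratio do not overlap by themselves, so it is not a separate observation. The share of other transcript pairs without overlap was not computed. For SbSUT1 over SbSUT4 they were 6.77, 8.04 and 4.28 in deficient shoots, against 5.99, 4.33 and 3.33 in control shoots. An exact permutation test on the log2 ratios (two-sided) gave p = 0.2, 0.1 and 0.3 for these comparisons, and 0.36 for each after adjustment over the 6 ratios tested in RNA and footprints. With 3 shoots against 3 the test cannot go below 0.1.

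The third question was how the footprints of each SUT transcript stood relative to its RNA, and whether that changed. The ratio of footprint CPM to RNA CPM, called translational efficiency, was taken for the 3 members that passed the filter in both assays, and among these it followed the order of their levels. SbSUT1 had ratios of 2.90, 3.51 and 1.96 in sulfur-deficient shoots and 2.74, 1.97 and 1.72 in control shoots. Between 94.6% and 98.2% of 16420 transcripts had a lower ratio in the deficient shoots, and between 92.6% and 97.7% in the control shoots. SbSUT4 had ratios of 0.736, 0.713 and 0.790 in deficient and 0.708, 0.776 and 0.940 in control shoots. Between 41.0% and 47.8% of transcripts had a lower ratio in deficient shoots and between 42.5% and 59.8% in control shoots, and the median ratio over all transcripts was 0.825 in deficient and 0.810 in control shoots.

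SbSUT2 had ratios of 0.402, 0.260 and 0.363 in deficient and 0.466, 0.416 and 0.400 in control shoots, with 7.79% to 19.1% of transcripts below it in deficient and 15.3% to 23.3% in control shoots. Over the 6 shoots, the ratio of SbSUT1 was 3.09 times that of SbSUT4 (1.83 to 4.92) and that of SbSUT4 was 2.04 times that of SbSUT2 (1.52 to 2.75), each higher in 6 of 6 shoots (exact sign-flip permutation test, two-sided, p = 0.03125, also after adjustment over 2 pairs). These pairs too were taken from the order seen in the same shoots, not from an order set beforehand. A counting bias particular to a transcript, such as RNA reads from untranslated regions, would repeat in every shoot, and its part in these differences was not tested.

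**Figure D3:**
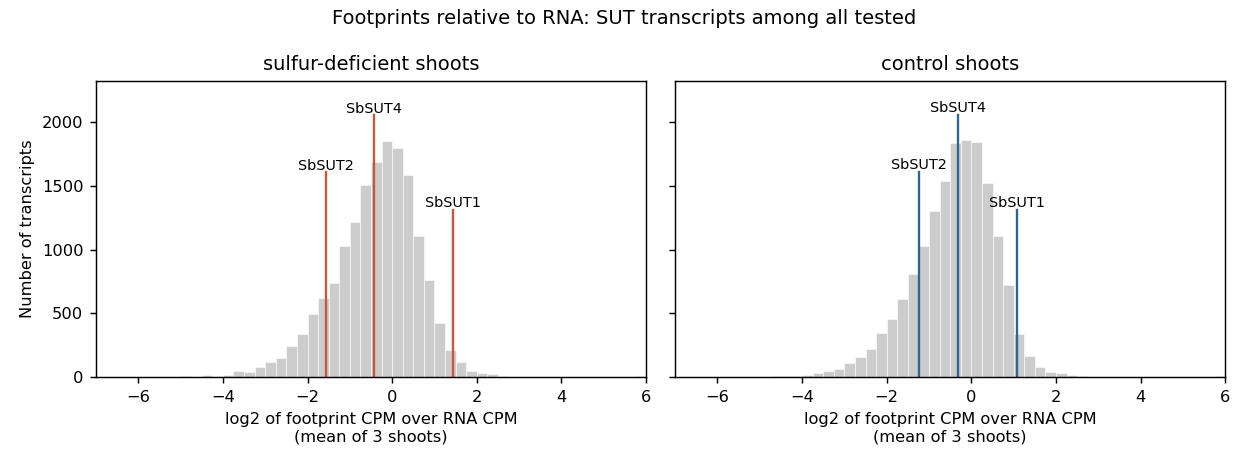
Number of transcripts by log2 ratio of footprint CPM to RNA CPM, mean of 3 shoots, in sulfur-deficient (left) and control shoots (right); vertical lines mark the SUT transcripts, and their heights carry no value. SbSUT1 lies in the upper tail, SbSUT4 near the middle and SbSUT2 on the lower side in both groups.

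The interaction of assay and treatment, fitted over the 12 libraries, called 0 of the 3 members tested in edgeR, where 0% of 16420 transcripts were called. DESeq2 and limma on the ratio per shoot also called 0 members and 0% of transcripts, and 0 members had an unadjusted p under 0.05 in edgeR, where 2.46% of all transcripts did. The log2 change in efficiency was 0.40 for SbSUT1 (SE 0.249, 95% interval -0.14 to 0.93), -0.13 for SbSUT4 (SE 0.188, -0.53 to 0.28) and -0.34 for SbSUT2 (SE 0.238, -0.85 to 0.17), each with an edgeR adjusted p of 1.00. This fit takes no account of the powder shared by the 2 libraries of a shoot. With the shoot as a block the changes were 0.37 (SE 0.222), -0.11 (SE 0.130) and -0.36 (SE 0.230), with an edgeR adjusted p of 0.992 and 0% of transcripts called. The groups overlapped for each of them, whereas 8.14% of all transcripts had no overlap. The interval of SbSUT1 runs from 0.909 to 1.91 times the control efficiency, so the data do not show that it stayed the same.

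**Figure D4:**
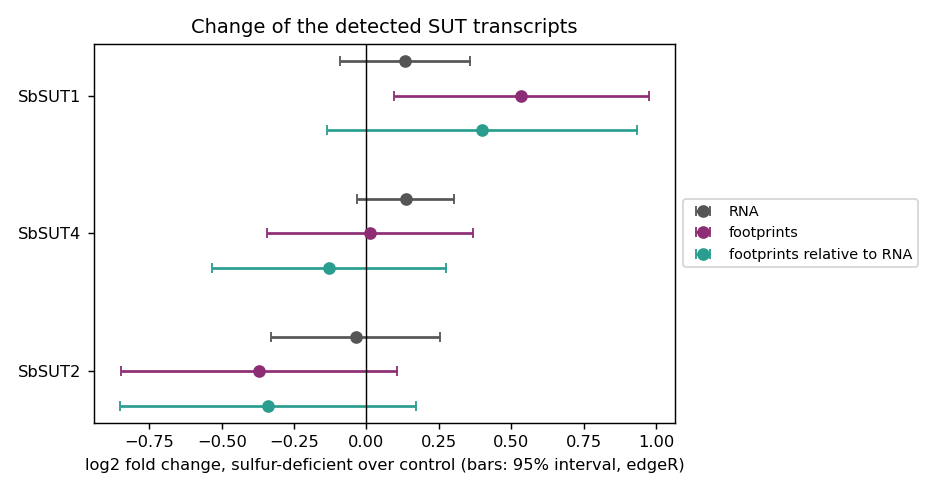
Log2 fold change, sulfur-deficient over control, of SbSUT1, SbSUT4 and SbSUT2 in RNA, in footprints and in footprints relative to RNA, with edgeR 95% intervals. The only interval of these that lies above 0 is that of SbSUT1 footprints, 0.09 to 0.98, and none passed the adjusted threshold.

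Variation between shoots of a group is given as the SD of the log2 value over 3 shoots, and no member was the most variable in every measure. For RNA it was 0.06 for SbSUT1, 0.03 for SbSUT4 and 0.17 for SbSUT2 in deficient shoots, and 0.21 for SbSUT1, 0.13 for SbSUT4 and 0.23 for SbSUT2 in control shoots, beside a median over all transcripts of 0.13 in each group. For footprints it was 0.40 for SbSUT1, 0.08 for SbSUT4 and 0.22 for SbSUT2 in deficient shoots (median 0.23), and 0.22 for SbSUT1, 0.32 for SbSUT4 and 0.13 for SbSUT2 in control shoots (median 0.20). SbSUT2 had the widest spread of the 3 in RNA in both groups, whereas in footprints it was SbSUT1 in deficient and SbSUT4 in control shoots. For efficiency it was 0.43 for SbSUT1, 0.08 for SbSUT4 and 0.33 for SbSUT2 in deficient shoots (median 0.24), and 0.35 for SbSUT1, 0.21 for SbSUT4 and 0.12 for SbSUT2 in control shoots (median 0.19).

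The sample descriptions number the deficient shoots 9, 13 and 15 and the control shoots 3, 1 and 7, with no word on what these stand for, and a fit with the pairs 1 and 3, 7 and 9, and 13 and 15 as a term rests on deficient shoot 1 and control shoot 3 alone for treatment. Between these shoots SbSUT1 stood at 320.5 CPM in the deficient and 331 CPM in the control shoot in RNA, and at 931 and 569.9 CPM in footprints of the deficient and the control shoot. SbSUT2 RNA stood at 12.7 CPM in the deficient and 17.6 CPM in the control shoot. In that fit the log2 fold changes in RNA were -0.05 for SbSUT1, 0.04 for SbSUT4 and -0.46 for SbSUT2, and in footprints 0.71, -0.32 and -0.46, with 0 members called by edgeR (adjusted p = 0.214 to 0.918 for RNA and 0.894 to 0.895 for footprints), where 1.47% of transcripts in RNA and 0.0242% in footprints were called. Of the 3 members, SbSUT2 in RNA had an unadjusted edgeR p under 0.05 there (0.00943), as did 11.9% of all transcripts tested.

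The transcripts whose RNA pattern was most like that of SbSUT1 were sought among 14307 with an average log2 CPM of at least 2. Over the 6 RNA libraries, Sobic.001G119800.1 had Pearson's r = 0.9972, Sobic.001G162300.3 had 0.9968 and Sobic.003G088800.1 had 0.9927, each with a Spearman's rho of 1. Without the 2 libraries farthest from the median of SbSUT1, r was 0.9995, 0.9835 and 0.969. Over the 6 footprint libraries their r with SbSUT1 was 0.514, 0.186 and 0.906. With so few libraries 239 of the 14307 transcripts had r over 0.9 in RNA, so these values describe the libraries and carry no p.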

How the data were processed

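The authors deposited 2 tables of unnormalized counts: reads per transcript for RNA-seq, and, for Ribo-seq, ribosome P sites added up along each coding sequence, beside its length. The submitters' processing notes name Bowtie2 and STAR, with no role for either. Build, annotation, counter and strand setting are not stated in the labels or file headers. Footprints of 26 to 34 nt were cut from a gel, per the labels' protocols.

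Counts were tested with edgeR 4.0.16 (R 4.3.3) over all transcripts: TMM scaling, filterByExpr (minimum count 10, minimum total 15), robust quasi-likelihood test and Benjamini-Hochberg adjustment with a threshold of 0.05. RNA and footprints were fitted separately, and efficiency as the interaction of assay and treatment. Log2 levels and ratios used a prior count of 0.5. DESeq2 1.42.0 and limma 3.58.1 served as alternatives. Replicate libraries differed by more than sampling noise (chi-square per degree of freedom 2.82 to 20.6). The edgeR tests set the differences between treatments against the spread between libraries of these shoots. The main efficiency fit treats the 2 libraries of a shoot as independent.

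RNA and footprint libraries of a shoot share 1 powder per the labels, so the shoot pairs these libraries. Their deviations from group means had correlations of 0.109 to 0.488, and those between different shoots were not computed for comparison. The main efficiency fit has no shoot block, and its values with the block are given beside it. All 6 members are named. The 3 transcripts most like SbSUT1 were chosen by their RNA correlation. Lists of sugar pathway and shoot marker genes by description were void, since 0 of 34210 IDs matched the reference table (Sorghum_bicolor_NCBIv3). The IDs were compared as written, without the final number, so a match under another form of the ID is not excluded. The members, lists and tests were chosen with earlier results of these data known.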

Additional observations from a re-analysis of the deposited data

How the results depend on the processing

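The number of members called was 0 in RNA, footprints and efficiency under every alternative run (other tests, scaling, filters, blocks and each shoot left out), with SbSUT2 footprints not tested where a mean of at least 50 counts was asked. Apart from the fit with the description numbers, these runs called 35 of 20409 to 508 of 20213 transcripts in RNA. In footprints they called 11 of 16755 to 95 of 16514, and in efficiency 0. With so few called in any run, 0 members called says little about the members. With no filter all 6 members were tested and 0 called. SbSUT1, SbSUT4, SbSUT2 and SbSUT5 kept their order of levels under all alternatives. The shares of SbSUT1 moved by less than the spread between shoots under their alternatives, which were added after seeing the data. Without division by coding length, the mean log2 difference of SbSUT4 and SbSUT2 RNA was 3.51, against 3.75. SbSUT1 footprints were higher in deficient shoots under all 13 alternatives (log2 fold change 0.38 to 0.73, edgeR or DESeq2 adjusted p = 0.198 to 1.00) and SbSUT2 footprints lower under all 12. Fold changes near 0 changed sign: SbSUT1 RNA with the description numbers as a term (-0.046), SbSUT2 RNA without control shoot 3 (0.0921) or deficient shoot 1 (0.052), SbSUT4 footprints with total counts (-0.0804, where the median of all transcripts was -0.0948), with the description numbers (-0.315) and without control shoots 1 or 2 or deficient shoot 3 (-0.0919, -0.0728 and -0.0236), and SbSUT4 efficiency without control shoot 3 (0.000574). With each shoot left out, SbSUT2 RNA ran from -0.139 to 0.0921, SbSUT4 footprints from -0.0919 to 0.218 and SbSUT4 efficiency from -0.218 to 0.000574. The log2 difference of SbSUT6 and SbSUT3 footprints was -0.24 in control shoots alone, on 1 count each and with 0 counts of both in control shoot 2. The cause was not tested. Replicate numbers did not pair the treatments: the deviations of same-numbered shoots had r = -0.124, 0.131 and -0.0426 for RNA and -0.0237, -0.0263 and 0.096 for footprints. With the replicate block, or the shoot block for efficiency, 0 members were called. Over all transcripts, these fits called 95 of 20045 in RNA, 30 of 16514 in footprints and 0 of 16420 in efficiency. Depth limits SbSUT2 footprints (31 to 71 counts) and keeps SbSUT3, SbSUT5 and SbSUT6 out of the filtered tests.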
